A study of Mus musculus with 6 samples.

Results

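Isolated CTCF sites are wild-type CTCF peaks with no other wild-type peak nearby. A peak on chromosomes 1 to 19 counted as isolated when the gap to the next wild-type peak, edge to edge, was at least 100 kb on both sides. There were 2304 such peaks among 38639 autosomal wild-type peaks (5.96%) and 40271 wild-type peaks in all. The other 36335 autosomal peaks served as the comparison. The isolated sites were chosen by the peak positions measured in wild type, so gap lengths, chromosomes and the wild-type values of these peaks are descriptions without a test.

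The data are CTCF ChIP-seq peak lists from G1E-ER4, mouse erythroblasts that have no GATA1 of their own and carry GATA1 as a fusion with the estrogen receptor. In all groups the fusion had been activated with 100 nM estradiol for 24 hours, so every library comes from differentiating cells. The groups are wild-type G1E-ER4 (1 CTCF library) and D_Brd2KO and C8_Brd2KO, a pair of clonal sub-lines made with CRISPR/Cas9 in which BRD2 is not detectable (1 CTCF library each). Each sub-line is 1 clone, so loss of BRD2 and clonal origin cannot be told apart. No test between genotypes was run, since 1 wild-type library gives no measure of the spread in wild type. Intervals below are exact (Clopper-Pearson) 95% binomial intervals and cover counting error only.

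CTCF recognises a long, conserved DNA motif with its zinc fingers. Bound CTCF halts cohesin as it extrudes chromatin loops, and sites tend to gather at loop anchors, at the borders of topological domains and around genes, while gene-poor stretches hold few. BRD2 is a BET family protein whose bromodomains bind acetylated histones, and the study asked whether CTCF occupancy differs without it. The lists give 3 values for each peak: an enrichment (column 7, a ratio; the sources used here do not say to what), a −log10 p (column 8, never below 5) and a false discovery rate (column 9). These values are the authors' own and are used only within a list. Read totals were not in the lists, so depth is unknown and an uncalled site is not a site shown to be free of CTCF. Regions are named by mm9 position alone, since gene models and DNA of that build were not used here.

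Isolated sites sat in long empty stretches. The shorter of the 2 gaps beside an isolated peak had a median of 150938 bp (quartiles 120270 and 211023) and the longer gap a median of 296349 bp (203872 and 460441). The stretch from one neighbour to the next, with the isolated peak inside it, had a median length of 466920 bp, against 56949 bp around the other peaks. Both gaps reached 200 kb at 655 sites, 300 kb at 232 and 500 kb at 34. Within 500 kb of its centre an isolated peak had a median of 6 other wild-type peaks (quartiles 4 and 10), against 24 (15 and 38) around the other peaks. The highest count at an isolated peak was 54.

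The limit fell in a continuous range of spacings. The peaks just inside it were on chromosome 15 (18249949 to 18250339), with a left gap of 100.008 kb and an enrichment of 11.89, and on chromosome 1 (18966780 to 18967270), with a left gap of 100.027 kb and an enrichment of 59.97. Just outside it were a peak on chromosome 14 (48317847 to 48318082), with a gap of 99.965 kb and an enrichment of 19.82, and one on chromosome 6 (27607358 to 27607899), with a gap of 99.933 kb and an enrichment of 47.58. In each pair 1 peak was called in both clones and 1 in neither. Isolated peaks with a shorter gap of up to 110 kb numbered 319 and had a median enrichment of 15.18. The 355 peaks with a shorter gap of 90 to 100 kb had a median of 15.86, so strength did not step at the limit.

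Every autosome held isolated sites, and their share of the peaks was lowest on the chromosomes most densely covered by CTCF. Chromosome 1 had the highest number (202), and chromosome 19, the shortest autosome, the lowest (38). As a share of the wild-type peaks, isolated sites were most frequent on chromosome 3 (8.90% of 1978 peaks) and chromosome 18 (8.71% of 1102), which had 12.6 peaks per Mb each. They were least frequent on chromosome 19 (3.28% of 1157) and chromosome 11 (3.36% of 2854), with 19.9 and 24.0 peaks per Mb. Per 10 Mb the range was narrower, from 6.53 isolated peaks on chromosome 19 to 11.5 on chromosome 10. Gaps of at least 100 kb made up 51.0% of the span of chromosome 11, the lowest share, and 72.5% of chromosome 3, the highest. Density enters the definition of an isolated peak, so this order is a description of where CTCF peaks are sparse.

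**Figure D1:**
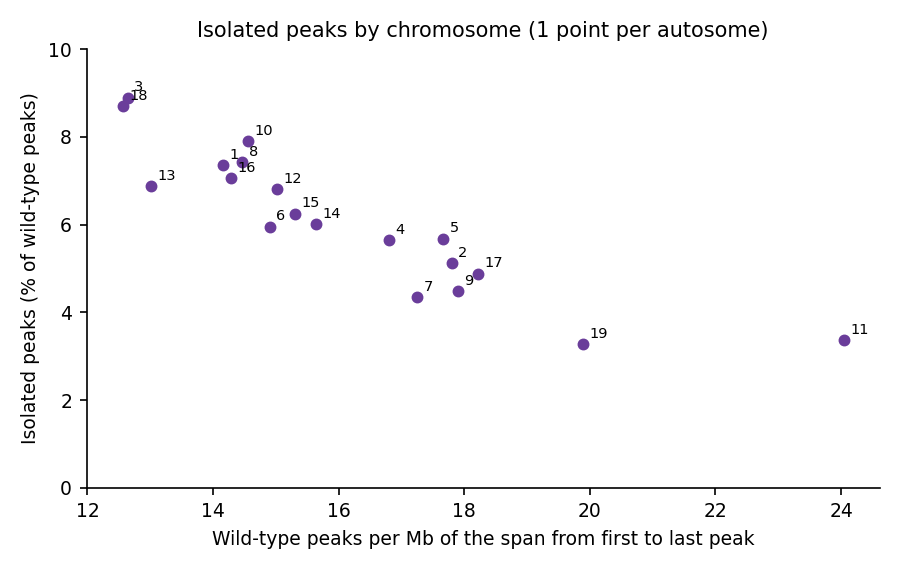
Isolated peaks as a percentage of the wild-type peaks of each autosome, against the number of wild-type peaks per Mb between the first and the last peak; 1 point per autosome, labelled by chromosome. Chromosomes 3 and 18 lie at the sparse end with 8.90% and 8.71%, and chromosomes 19 and 11 at the dense end with 3.28% and 3.36%.

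CTCF-poor stretches covered most of the autosomal span, and calls made only in the clones were sparser there than between closer wild-type peaks. Of 38620 gaps between neighbouring wild-type peaks (median 23775 bp), 6468 were at least 100 kb long, and these added up to 1577 of 2413 Mb (65.4%). Gaps of at least 1000 kb numbered 54 and made up 3.09% of the span. An isolated peak bordered 3615 of the 6468 long gaps (55.9%). A gap holds no wild-type peak by definition, so the clones were compared over peaks that overlap no wild-type peak. Of these, clone D had 1670 in the gaps of at least 100 kb (1.06 per Mb) and 2609 in the shorter gaps (3.18 per Mb). Clone C8 had 2320 (1.47 per Mb) and 3450 (4.21 per Mb). Gaps of at least 1000 kb held 0.509 per Mb in clone D and 0.723 per Mb in clone C8.

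The longest gap lay on chromosome 7 (39204993 to 46766370), 7.56 Mb without a wild-type peak and with an isolated peak at its left border. Clone D had 3 peaks inside it, with enrichments of up to 12.35, and clone C8 had 1, with an enrichment of 9.05. The next, on chromosome 1 (84930501 to 87622473, 2.69 Mb) and chromosome 8 (19589066 to 22100591, 2.51 Mb), held no peak of either clone. A gap on chromosome 1 (123676891 to 125755830, 2.08 Mb) had an isolated peak on each side, with 2 clone D peaks and 1 clone C8 peak inside it. A gap on chromosome 8 (55958325 to 58025944, 2.07 Mb) held 1 peak of each clone. Whether reads can be placed uniquely throughout these gaps was not tested.

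Of the 2304 isolated peaks, 1541 (66.9%) were next to at least 1 other isolated peak, and the set formed 1311 runs of consecutive isolated peaks. The rule favours such runs, since each neighbour of an isolated peak already has 1 gap of at least 100 kb. Whether there were more runs than the gaps alone would give was not tested. Single peaks made up 763 of the runs and pairs 322, while 55 runs held at least 5. The longest runs held 10 isolated peaks each. The first was on chromosome 12 (4980204 to 7985246, 3.01 Mb between the bordering peaks), with enrichments of 9.49 to 19.82. Clone D called 1 of its 10 peaks and clone C8 none. The other lay on chromosome 8 (77929739 to 79827908, 1.90 Mb), with enrichments of 9.91 to 75.33, and each clone called 4 of its 10 peaks. A run of 8 on chromosome 2 (62913385 to 65615148, 2.70 Mb) had a higher median enrichment, 22.795, and each clone called 4. The runs thus ranged from a stretch of weak peaks, of which a clone called at most 1, to stretches in which each clone called 4. Of all isolated peaks, clone D called 32.3% and clone C8 34.2%. Of all autosomal wild-type peaks they called 64% and 66.2%.

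Isolated peaks were weaker and narrower than other wild-type peaks. Their median enrichment was 13.88 (quartiles 11.89 and 19.82), against 23.79 (15.18 and 43.565) for the other autosomal peaks. The median −log10 p was 6.84 against 12.9. A −log10 p below 10 was found at 73.4% of isolated peaks (71.5 to 75.1) and 41.4% of the others (40.9 to 41.9). A false discovery rate of at most 0.05 was found at 23.2% (21.5 to 25.0) and 55.5% (55.0 to 56.0). The median width was 376 bp (quartiles 344 and 428) against 407 bp (352 and 505), and 8 isolated peaks (0.347%) were 800 bp or wider, against 327 of the others (0.900%). When autosomal peaks were ranked by enrichment and cut into 10 equal strength classes, 1388 isolated peaks (60.2%) fell in the weakest classes, 1 to 3, and 344 (14.9%) in classes 7 to 10. Isolated peaks made up 13.1% of class 1 and 1.27% of class 10. The spread was nevertheless wide, from an enrichment of 6.07 to one of 224.02.

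**Figure D2:**
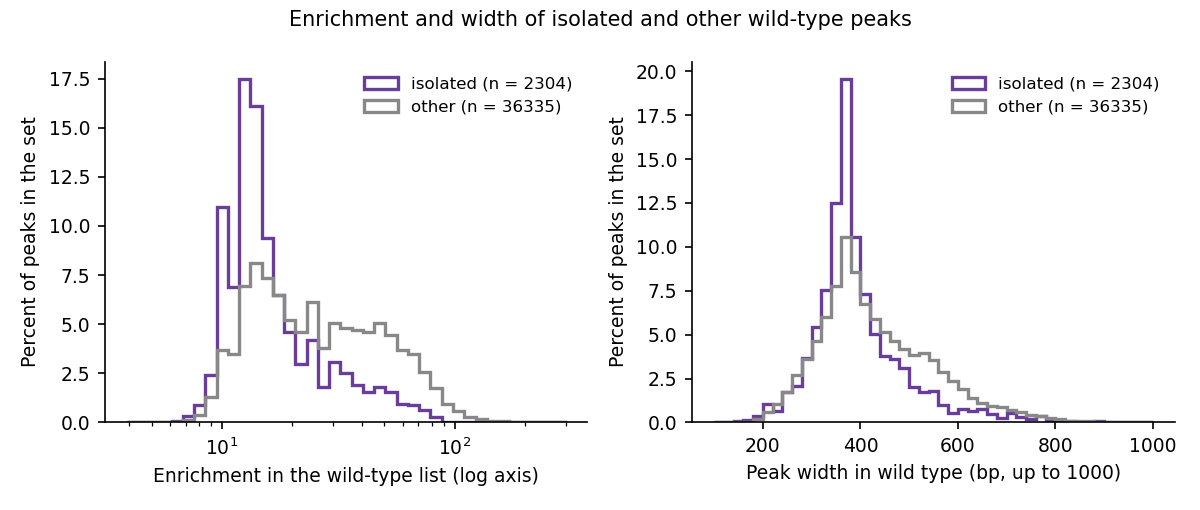
Distribution of enrichment (left, log axis) and of peak width (right, in bp, drawn up to 1000 bp) in the wild-type list, as a percentage of the 2304 isolated and the 36335 other autosomal peaks. Isolated peaks gather at low enrichment (median 13.88 against 23.79) and lack much of the tail of wide peaks (upper quartile 428 bp against 505 bp).

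A minority of isolated sites was strong and was called in every list. The strongest isolated peak, on chromosome 2 (39228548 to 39229033), had an enrichment of 224.02 and rank 6 of all wild-type peaks, with gaps of 104.19 and 152.898 kb. Within the clone lists, which held 29769 (D) and 32308 (C8) peaks, it ranked 22 and 1, although in both clone lists another peak lay within 100 kb. The second, on chromosome 15 (71748042 to 71748494), stood between gaps of 504.151 and 133.381 kb with an enrichment of 101.7, and it ranked 366 in wild type, 177 in clone D and 40 in clone C8. A peak on chromosome 6 (22443861 to 22444457, enrichment 93.18) ranked 595, 1433 and 740 in the same order of lists. A peak on chromosome 3 (25573977 to 25574380, enrichment 87.23) ranked 828, 1713 and 2026. The fifth, on chromosome 14 (93163421 to 93163960, enrichment 85.25), ranked 941, 5366 and 15303. The lists differ in length, so these ranks place a peak within its own list only. The peaks on chromosomes 15, 3 and 14 were isolated by the same rule in both clone lists, and they are the 3 strongest isolated peaks of which this holds.

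The 5 most remote sites were all weak, and neither clone called them. The 5 isolated peaks with the longest shorter gap lay on chromosome 6 (139419952 to 139420315, gaps of 1203 and 971.484 kb), chromosome 14 (108571166 to 108571500, 958.965 and 1409 kb), chromosome 3 (76691273 to 76691632, 760.433 and 883.729 kb), chromosome 4 (121727654 to 121728007, 813.297 and 757.289 kb) and chromosome 15 (86975708 to 86976042, 735.561 and 945.786 kb). Their enrichments were 12.93, 9.11, 11.89, 9.91 and 13.88, and their false discovery rates ran from 0.1916 to 0.6479. Neither clone had a peak at any of the 5. Few weak peaks were called at all, isolated or not. Of the 1388 isolated peaks in strength classes 1 to 3, clone D called 7.71% and clone C8 8.93%. Of other peaks of like enrichment (matched as described below) they called 15.4% and 17.7%. Of the 232 isolated peaks with a shorter gap above 300 kb, the clones called 23.3% and 25.9%. The shares of other peaks of like enrichment were 30.4% and 32.9%.

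Isolated sites were found in the BRD2-null clones less often than other wild-type peaks, and less often than other wild-type peaks of equal strength. Clone D overlapped 745 of the 2304 isolated peaks by at least 1 bp, 32.3% (30.4 to 34.3), where 64% of all autosomal wild-type peaks were overlapped. Clone C8 overlapped 789, 34.2% (32.3 to 36.2), where the share of all autosomal peaks was 66.2%. Both clones called 692 isolated peaks (30.0%, 28.2 to 32.0), against 60.7% of all autosomal peaks, and neither clone called 1462 (63.5%, 61.5 to 65.4), against 30.5%. Clone D alone held 53 (2.30%) and clone C8 alone 97 (4.21%). Most isolated peaks thus had the same outcome in both clones, and so had most autosomal peaks (60.7% in both and 30.5% in neither). The isolated peaks called in both clones had a median enrichment of 27.75, and those called in neither had one of 11.89.

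Weak peaks are found less often in another list whatever their spacing, so the share was also compared at like enrichment. The autosomal list was divided into 50 bins by column 7, and the rate of the other peaks in each bin was weighted by the number of isolated peaks there. Clone D overlapped 38.9% and clone C8 41.4% of other peaks of like enrichment, both above the intervals of the isolated peaks. The difference came to −6.53 percentage points for clone D and −7.11 for clone C8, a mean of −6.82 ± 0.406 (SD, n = 2 clones). Without regard to strength, the other peaks were overlapped at 66.0% (clone D) and 68.2% (clone C8), so most of the raw difference went with enrichment and a smaller part remained. Both clone values rest on the same wild-type list, so this SD leaves out any variation between wild-type libraries. The size also depended on the weak calls. With each list limited to a −log10 p of 10 or more and isolation judged anew (1803 peaks), the mean difference was −3.49 points. With a false discovery rate up to 0.05 (1749 peaks, judged anew) it was −2.98. For the 614 isolated peaks of the full list with a −log10 p of 10 or more it was −4.74. In the full lists the difference was below 0 on 18 of 19 autosomes in clone D and on 19 of 19 in clone C8. The peaks of like enrichment came from all autosomes here, so these values do not separate isolated peaks from the chromosome's peaks as a whole. Chromosome 14 had the lowest values (−12.5 for D and −14.2 for C8, over 115 isolated peaks), and chromosome 19 in clone D the only value above 0 (1.12, over 38). None of these 115 came from the first 8 Mb of chromosome 14, where wild type had 280 peaks, all of them non-isolated.

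The 10 strength classes are broader than the 50 bins, and shares within a single class were not matched for enrichment. In both clones the share of the others lay above the interval of the isolated peaks in classes 1 to 5 and in class 10. In class 7 this held in clone C8 only. In class 1, clone D overlapped 1.97% of 507 isolated peaks (0.950 to 3.60) and 9.77% of the others (8.79 to 10.8), and clone C8 overlapped 2.56% (1.37 to 4.34) and 11.5% (10.4 to 12.6). In class 4 the shares of isolated and other peaks were 35.3% and 47.1% (clone D) and 38.2% and 50.5% (clone C8). In class 6 the sets lay close together: 84.2% of 146 isolated peaks and 84.4% of the others were overlapped in clone D, and 87.7% and 88.0% in clone C8. In class 7 each clone overlapped 93.0% of 129 isolated peaks (87.2 to 96.8), against 95.7% (clone D) and 97.6% (clone C8) of the others. In class 8 each clone overlapped all 85 isolated peaks. In class 10 each clone overlapped 93.9% of 49 isolated peaks (83.1 to 98.7), against 99.8% (clone D) and 99.9% (clone C8) of the others. Matched by the 50 bins, the differences over classes 1 to 3 were −7.66 points (clone D) and −8.79 points (clone C8). Over classes 4 to 6 they were −6.67 and −5.71. Over classes 7 to 10, 331 of 344 isolated peaks (96.2%, 93.6 to 98.0) were found in clone D and 331 in clone C8. Of other peaks at like enrichment, 98.0% and 98.9% were found.

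**Figure D3:**
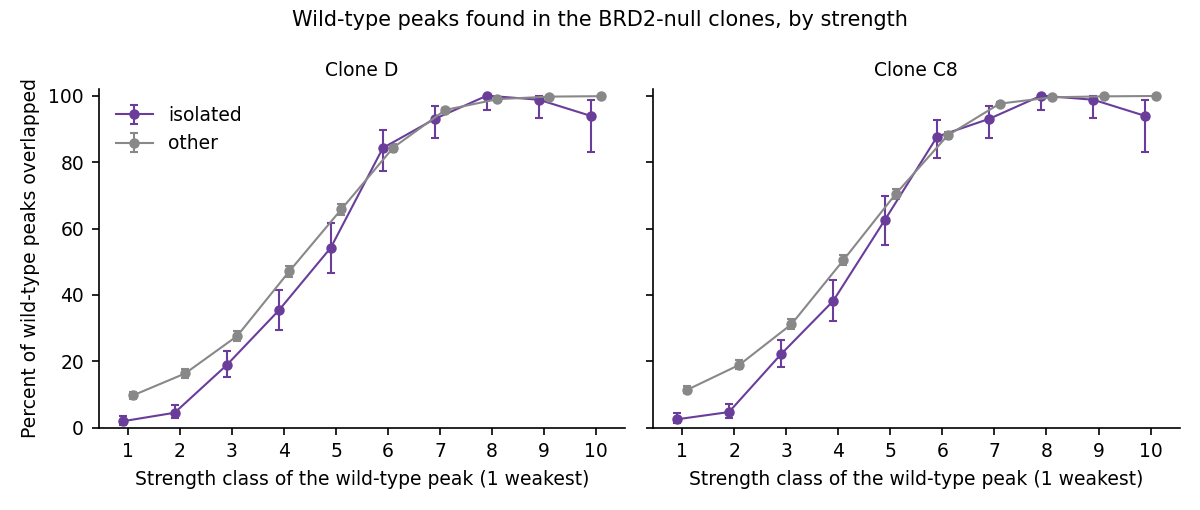
Percentage of wild-type autosomal peaks overlapped in clone D (left) and clone C8 (right), by strength class of the wild-type peak (1 weakest, 10 strongest); bars are exact 95% binomial intervals. Isolated peaks lie below the others in classes 1 to 5, for example 1.97% against 9.77% in class 1 of clone D. They lie nearer in classes 6 to 9, though below in class 7 (93.0% against 97.6% in clone C8). In class 10 they lie below the others (93.9% against 99.8% in clone D). Enrichment was not matched within a class.

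Among the strongest isolated peaks a few were missing from both clones. In the upper 20% of the wild-type list by enrichment (at least 46.45) there were 133 isolated peaks. Clone D called 129, clone C8 129 and both clones 128. The 3 that neither called lay on chromosome 6 (132413660 to 132413894, enrichment 69.39, −log10 p 45.0), chromosome 1 (12634649 to 12635007, 69.39 and 38.1) and chromosome 1 (45007980 to 45008209, 62.62 and 42.7). Peak widths were 235, 359 and 230 bp, where isolated peaks of class 10 had a median width of 492 bp. All 3 belong to class 10, in which 3 of 49 isolated peaks (6.12%, 1.28 to 16.9) and 3 of 3814 other peaks (0.0787%, 0.0162 to 0.230) were absent from both clones. With 1 wild-type library and 3 peaks, this difference has no replicate check. The strongest isolated peak called in clone D alone was on chromosome 10 (28088392 to 28088747), at an enrichment of 51.54 in wild type. The strongest called in clone C8 alone was on chromosome 18 (84559133 to 84559556), at 49.56. Their −log10 p in the clone that called them was 10.2 and 10.1. These last 2 were chosen after their values were seen.

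Overlap at like enrichment also varied over the range of spacings. Peaks whose nearest neighbour was under 5 kb away stood at −0.154 points (clone D) and −0.0623 points (clone C8) relative to peaks of all other spacings at like enrichment. For neighbours at 5 to 20 kb the differences were 2.06 and 2.70 points, and at 20 to 50 kb they were 0.208 and 0.0743. At 50 to 100 kb they were −1.95 and −3.30. The isolated peaks, at −6.53 and −7.11, had the lowest values of the 5 spacing classes in both clones. Within the isolated set, the differences were −5.34 and −5.96 points for a shorter gap of 100 to 150 kb (1137 peaks), −7.18 and −7.64 at 150 to 200 kb (512 peaks), −8.67 and −9.62 at 200 to 300 kb (423 peaks) and −7.07 and −7.00 above that (232 peaks). Steps between these classes were not tested; above 300 kb the share in clone C8 was 25.9%, with an interval of 20.4 to 32.0.

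**Figure D4:**
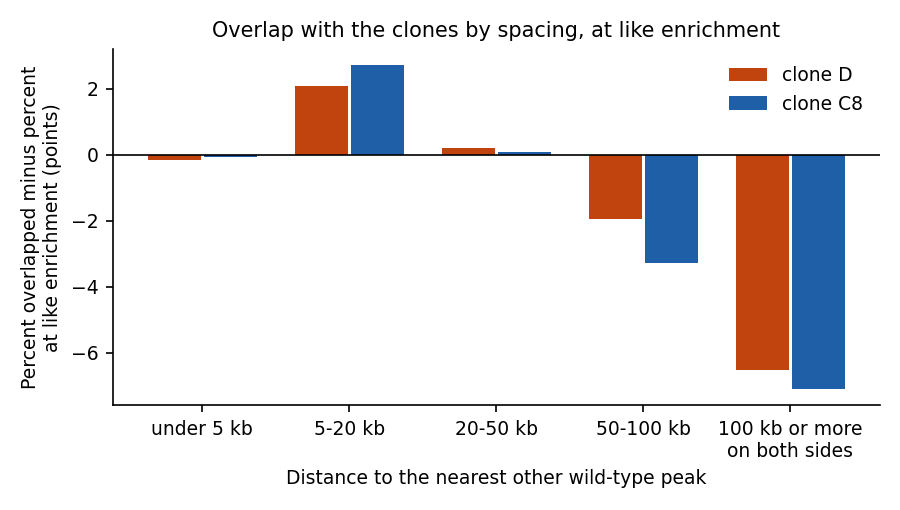
Percentage of wild-type peaks overlapped in each clone minus the percentage among peaks of all other spacings at like enrichment, in percentage points, by distance to the nearest other wild-type peak. Values are highest at 5 to 20 kb (2.06 for D, 2.70 for C8) and lowest for isolated peaks (−6.53 and −7.11).

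A lower overlap of isolated peaks was also measured between the BRD2-null clones and with either clone as the reference. The same rule applied within clone D gave 1804 isolated peaks of 28941 autosomal peaks (6.23%), and within clone C8 it gave 1964 of 31362 (6.26%). Of the isolated clone C8 peaks, 63.7% (61.6 to 65.9) were found in clone D, which has the same genotype, against 72.1% of other clone C8 peaks at like enrichment, a difference of −8.40 points. For isolated clone D peaks in clone C8 the shares were 79.4% (77.4 to 81.2) and 81.7%, a difference of −2.28 points, with the second share outside the interval. In wild type, the differences were −5.59 points for clone D peaks and −10.7 points for clone C8 peaks. Both values for clone C8 as the reference were thus lower than those for wild type, and both for clone D were closer to 0. The reference lists differ in length and in their share of weak peaks, and the part of either in these differences was not tested.

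**Figure D5:**
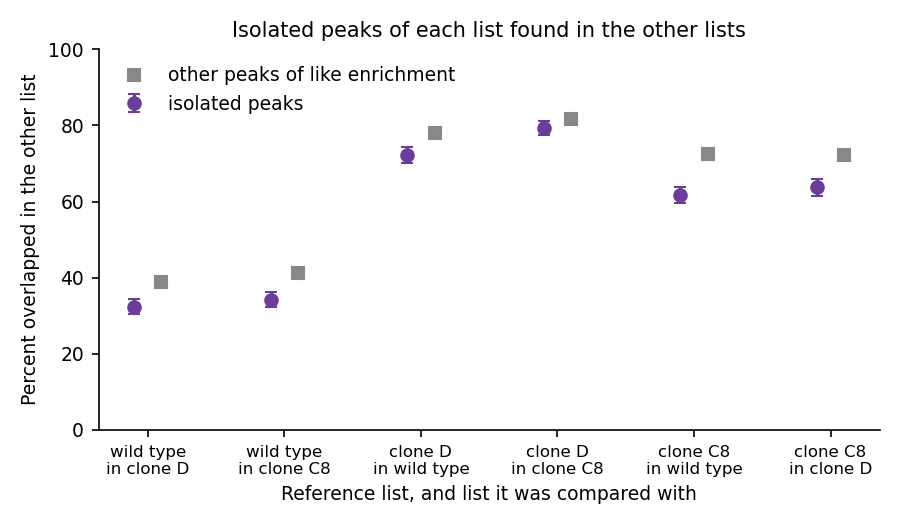
Percentage of the isolated peaks of each list that were overlapped in each of the other lists (circles, with exact 95% binomial intervals) and of other peaks of the same list at like enrichment (squares). In all 6 comparisons the isolated peaks lie lower, also between the clones (63.7% against 72.1% for clone C8 peaks in clone D, and 79.4% against 81.7% for clone D peaks in clone C8).

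Most isolated sites that the clones called were isolated there too. Of the 745 called in clone D, 581 (78.0%, 74.8 to 80.9) had no other clone D peak within 100 kb on either side. In clone C8 the count was 579 of 789 (73.4%, 70.2 to 76.4). The sites were chosen for long gaps in wild type and the clone lists are shorter, so high shares follow in part from the choice. No comparison share was computed. Of the 692 isolated peaks called in both clones, 456 (65.9%) were isolated in all 3 lists, and their median enrichment in wild type was 27.75. Peaks that the clones called at isolated sites had median widths of 481 bp (clone D) and 421 bp (clone C8), where the wild-type peaks at the same sites had medians of 403 and 398 bp. Widths at other shared sites were not compared, so whether this is particular to isolated sites was not tested.

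Summed over sites, clone peaks were not denser beside isolated sites than in long gaps as a whole. A clone D peak lay within 100 kb of 341 isolated sites (14.8%), a clone C8 peak beside 487 (21.1%), and a peak of either clone beside 611 (26.5%). In these flanks, summed over sites, clone D had 0.851 peaks per Mb and clone C8 1.32. All gaps of at least 100 kb had the 1.06 and 1.47 given above, and the flanks are part of these gaps. Peaks and flank length shared by neighbouring isolated sites count more than once in the sums. The sums were 392 (clone D) and 610 (clone C8), for 372 and 581 different peaks. Leaving out 2 clone D peaks that overlapped a wild-type peak, 370 clone D peaks and 581 clone C8 peaks lay in the flanks, with median enrichments of 9.06 and 11.63. Clone C8 also called 171 of the 370 clone D peaks (46.2%, 41.0 to 51.4), against 46.3% of other clone D peaks that wild type lacked at like enrichment. Of the 581 clone C8 peaks, clone D called 171 (29.4%, 25.8 to 33.3), against 34.8% at like enrichment.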

How the data were processed

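CTCF ChIP-seq of 3 libraries was analysed; the 3 input libraries were not used. The genome build was mm9 and the tools included Bowtie 1.0.0 and bcl2fastq 1.8.4, per the submitters' processing notes. The sources used here do not name the peak caller or its settings. For each library the authors deposited 1 list of peaks, with an enrichment ratio (column 7), a −log10 p (column 8) and a false discovery rate, read here as a q-value (column 9); files have no header, and these readings rest on the layout and the values. No depth is given. Starts are counted from 1.

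Gaps ran from edge to edge within the wild-type list, and the first and last peak of a chromosome, with 1 gap, did not count as isolated. Peaks were shared at an overlap of 1 bp. Like enrichment means 50 bins of equal size by column 7, ties ordered by column 8. The members and comparisons were chosen with earlier results of these data known. Named regions are the 5 strongest, the 5 most remote, strong ones in neither clone (up to 5), 3 isolated in all lists, 2 on each side of the limit, the 5 longest gaps and the 3 longest runs. Code (Python 3.11.15, pandas 2.3.3, numpy 2.4.6, SciPy 1.17.1) was tested on simulated data, and 12 of 12 overlap counts equalled bedtools 2.31.1.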

Additional observations from a re-analysis of the deposited data

How the results depend on the processing

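Of 37 values under an alternative, 15 stayed within 1.5 times the count, within the interval of the share or within the spread between the clones, and 22 moved. Some of the 15 could not have moved. The first 8 Mb of chromosome 14 held no isolated peak, so leaving it out kept the count and the share. Leaving out 1 clone always stays within the spread between the clones. The difference at like enrichment stayed below 0 in 17 of 17. Those that leave out a clone repeat the main value of the other clone, so their sign was fixed beforehand. Gaps of 50 kb gave 5510 isolated peaks, 40.7% in both clones and a mean difference of −5.04 points; gaps of 200 kb gave 655, 24.3% and −7.92. Gaps to peaks of any list gave 26.9% and −7.24. Lists without weak peaks held stronger isolated peaks by construction, and isolation was judged anew in them. Lists of equal length gave 58.2% and −6.34. Peaks with −log10 p from 10 upward gave 69.6% and −3.49, and peaks with a rate up to 0.05 gave 85.7% and −2.98. The 614 isolated peaks of the full list whose −log10 p was 10 or more gave 80.9% and −4.74. The difference was −6.17 with a reciprocal overlap of 50%, −8.78 with peaks extended by 500 bp and −8.46 with like strength by column 8; for these the cause was not tested. Chosen after seeing the data, like strength by columns 7 and 8 together gave −7.62, and within each chromosome −7.36. Leaving out each clone gave −7.11 to −6.53. Unknown depth limits every share, since a weak site can be missed for lack of reads. No paired analysis was possible because each line has 1 CTCF library, and nothing was tested.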
